A study of Mus musculus with 12 samples.

Results

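The AP-1 and related bZIP factors were followed through 12 RNA-seq samples of mouse bone marrow-derived macrophages (BMDMs). The members were Fos, Fosb, Fosl2, Jun, Junb, Jund, Batf, Atf3 and Jdp2, taken by symbol from a family list, and they were 9 of the 38739 symbols listed. A filter on low values was passed by 8 of the 9 and by 11887 genes in all, and Fosb did not pass it. Values are in TPM, an abundance corrected for transcript length, and each is the average of a symbol's transcripts, so a level is compared between samples and never between members.

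AP-1 is a family of dimers. A FOS protein (Fos, Fosb, Fosl2) pairs with a JUN protein (Jun, Junb, Jund) through the leucine zipper, and the basic regions next to it grip DNA at the TPA response element (TRE) or, with ATF partners, at the cyclic AMP response element (CRE). JUN proteins can also pair with one another, whereas FOS proteins need a partner. Batf and Jdp2 lack the activation domain of Fos and take its place beside JUN proteins, and Atf3 often acts as a repressor. In macrophages, signals from Toll-like receptors reach these genes and proteins through MAP kinases, and many members are transcribed as immediate early genes that rise and fall within hours.

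The samples formed 4 groups of 3. They were wild-type (WT) untreated (UT), WT with lipopolysaccharide (LPS), cGAS-/- UT and cGAS-/- with LPS. All cells came from male 8-week-old mice on the C57BL/6J background, UT cells received medium only, and LPS was of the E. coli 026:B6 type. The labels give LPS at 100 ng/mL for 1 h and the study's methods give 150 ng/mL for 24 h, so the time after LPS is uncertain for genes that change within hours. The cGAS-/- mice lacked the DNA sensor in all their cells and came from another laboratory's colony. A group's 3 samples are described as technical replicates by the study, so p-values measure the spread between samples that may share their mice.

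The targeted gene Cgas ranged from 1.19 to 3.25 TPM in WT and from 0.0703 to 0.291 TPM in cGAS-/- samples. The labels' extraction step names neutrophils, but the macrophage markers in the table (12 of 15 listed) summed to 24744 to 37872 TPM and the neutrophil markers (10 of 12) to 85.8 to 403 TPM. The macrophage sum was 24744 to 25747 TPM in WT UT, 25277 to 29087 in WT LPS, 25883 to 28453 in cGAS-/- UT and 37535 to 37872 in cGAS-/- LPS, and its part in the results was not tested. B cell markers (7 of 8 in the table, none at 0 throughout a group) summed to 108 to 134 TPM in WT UT, 30.6 to 44.9 in WT LPS, 19.9 to 28.5 in cGAS-/- UT and 3.04 to 8.90 in cGAS-/- LPS. The summed dendritic cell markers were lower with LPS without overlap. They were at 7.82 to 8.89 and 2.66 to 3.14 TPM in WT and at 4.75 to 6.41 and 2.35 to 3.199 in cGAS-/- cells. Of the 3 tested dendritic cell markers, Itgax was called lower and Xcr1 higher with LPS in both genotypes. The B cell sum was also lower with LPS in both genotypes. Of the 4 tested B cell markers, Ighm and Igkc were called lower and Cd79a higher in WT. In cGAS-/- cells only Ighm was called, and it was lower. The part of either sum in the LPS results was not tested. T and NK cell markers stayed at or under 1.02 TPM in sum and fibroblast markers under 17.3. WT LPS replicate 3 stood apart, with values that summed to 709802 against 447189 to 503156 in the other 11 samples and with 18.5% of its sum in protein-coding genes against 39.7% to 54.4%. The LPS differences of the members in WT and the main counts of called genes are therefore also given without it. This was done for only some single genes outside the family, and the WT values of the others may depend on it as well. In bulk samples, fewer cells of a type and less RNA per cell cannot be told apart.

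The 250 bases before the annotated start of 4 members are shown because these genes stood at different places in the LPS comparison, with Batf called higher, Fos called lower in WT and the LPS means of Jun and Jund below UT without a call, and because AP-1 genes are known to carry AP-1, CRE and NF-kB sites of their own. They were read from GRCm39 and are written 5′ to 3′ on the strand of the gene, from chr12:85520408-85520657 (+) for Fos, chr4:94940460-94940709 (-) for Jun, chr8:71151349-71151598 (+) for Jund and chr12:85733173-85733422 (+) for Batf. Capitals mark matches to the TRE, the CRE, its jun variant, the TGACG core of the CRE, the CArG box or the NF-kB box.
Fos: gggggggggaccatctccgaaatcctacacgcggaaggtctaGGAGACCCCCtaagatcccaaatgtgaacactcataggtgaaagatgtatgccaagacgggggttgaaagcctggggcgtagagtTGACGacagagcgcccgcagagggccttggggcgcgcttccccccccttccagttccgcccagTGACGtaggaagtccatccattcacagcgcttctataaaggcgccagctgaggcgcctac
Jun: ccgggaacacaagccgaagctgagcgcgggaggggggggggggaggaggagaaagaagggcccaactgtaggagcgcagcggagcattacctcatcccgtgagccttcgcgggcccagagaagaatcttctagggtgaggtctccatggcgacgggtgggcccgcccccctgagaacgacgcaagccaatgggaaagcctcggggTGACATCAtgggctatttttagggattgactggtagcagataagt
Jund: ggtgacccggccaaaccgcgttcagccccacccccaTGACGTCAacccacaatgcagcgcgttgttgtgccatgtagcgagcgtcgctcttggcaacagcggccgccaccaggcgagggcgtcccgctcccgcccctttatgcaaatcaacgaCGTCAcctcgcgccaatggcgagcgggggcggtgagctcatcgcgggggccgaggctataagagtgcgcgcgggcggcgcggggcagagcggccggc
Batf: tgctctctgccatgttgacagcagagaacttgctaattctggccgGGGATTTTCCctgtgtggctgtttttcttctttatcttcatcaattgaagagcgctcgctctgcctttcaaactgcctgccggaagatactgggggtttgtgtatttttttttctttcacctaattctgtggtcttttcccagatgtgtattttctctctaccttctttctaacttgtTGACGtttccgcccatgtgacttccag

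Matches other than TATAAA were searched on both strands in the same window of 21751 annotated genes, with the members among them. The TRE, TGACTCA or TGAGTCA, was in none of the 9 members and in 4.03% of all windows. The CRE, TGACGTCA, was in Jund alone among the members, at bases -214 to -207, and in 1.70% of all windows. The jun variant, TGACATCA, was in Jun alone, at -45 to -38, and in 2.61%. The core TGACG or CGTCA, which the full CRE contains, was in 6 of 9 members and in 18.0%. The NF-kB box was in 3 members, at -208 in Fos, -182 in Fosb and -205 in Batf, and in 7.62%. The CArG box was in no member and in 1.40%. A TATAAA, not marked above and searched on the strand of the gene alone, was in Fos and Junb and in 8.03%. These matches describe letters and not bound sites.

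With LPS, Batf and Jdp2 rose in both genotypes, and Fos and Atf3 fell in WT. In WT cells, 2 of the 8 tested members rose and 2 fell, by limma with a Benjamini-Hochberg adjusted p under 0.05, where 27.6% of all tested genes passed (4.31% upward and 23.3% downward). In cGAS-/- cells, 2 rose and none fell, with a share of 13.8% over all genes (4.76% upward and 9.06% downward). At an unadjusted p under 0.05 the counts were 6 and 4, against 42.3% and 24.9% of all genes. The median log2 fold change of all tested genes was below 0 on this scale, at -0.46 in WT and -0.20 in cGAS-/- cells, and that of the 8 members was -0.90 and -0.12. With each sample rescaled by TMM factors, the split of the called genes was 7.75% upward and 12.2% downward in WT and 6.76% and 6.89% in cGAS-/- cells. The called members were then Batf and Jdp2 upward in both genotypes, Atf3 downward in both, and in WT also Junb upward and Fos downward. The WT difference was then 1.68 for Jdp2, -0.91 for Atf3 and 0.97 for Junb. Fold changes are differences of log2(TPM + 1) and understate the change of low genes.

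**Figure D1:**
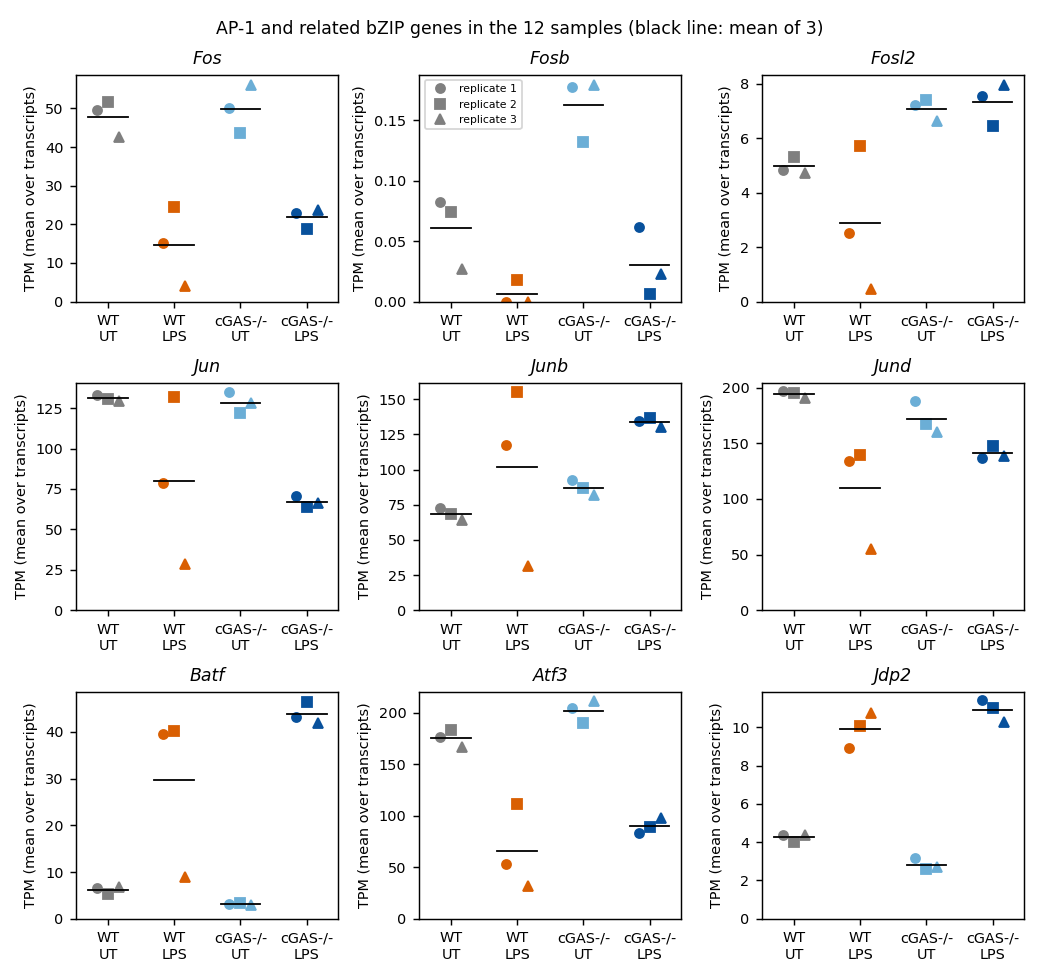
TPM of each member in the 12 samples (y axis, from 0), by genotype and treatment (x axis), with a marker shape for each replicate and a black line at the mean of 3. In the LPS groups Batf and Jdp2 sit above UT and Fos and Atf3 below it, and WT LPS replicate 3 (orange triangle) is the lowest of its group for every member except Fosb and Jdp2.

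Fos (ENSMUSG00000021250, chromosome 12, 85520658 to 85524047) is the founding FOS gene and an immediate early gene. Its level was 49.5, 51.6 and 42.5 TPM in WT UT and 15.3, 24.4 and 4.14 in WT LPS (replicates 1 to 3). In cGAS-/- cells it was 50.1, 43.7 and 56.2 TPM in UT and 23.0, 18.8 and 23.7 with LPS. Every LPS sample lay below every UT sample in both genotypes. In WT cells Fos fell by 1.92 ± 0.46 (SE) on the log2 scale (adjusted p = 0.0120 in limma). It fell by 1.26 when WT LPS replicate 3 was left out (limma, adjusted p = 0.000956). The difference in cGAS-/- cells was -1.16 ± 0.46 (adjusted p = 0.140) in the fit that shares its spread with the WT LPS samples. Fitted on the 6 cGAS-/- samples alone, the same difference had an adjusted p of 0.000793 in limma.

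Fosl2 (ENSMUSG00000029135, chromosome 5, 32292707 to 32315186), also known as Fra-2, is a more slowly induced FOS gene. It was at 4.84, 5.31 and 4.74 TPM in WT UT, 2.52, 5.71 and 0.473 in WT LPS, 7.20, 7.38 and 6.62 in cGAS-/- UT and 7.55, 6.43 and 7.96 in cGAS-/- LPS. The LPS and UT samples overlapped in both genotypes, and the WT LPS samples were spread over a wide range. The LPS difference was -0.87 ± 0.42 in WT (limma, adjusted p = 0.137) and 0.04 ± 0.42 in cGAS-/- cells (adjusted p = 0.976). Without WT LPS replicate 3 the WT difference was -0.29 (adjusted p = 0.340). A lncRNA on the opposite strand, Gm72529, shares 282 bases with Fosl2, and the strand setting of the counting is not given in the sources used here.

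Fosb (ENSMUSG00000003545, chromosome 7, 19036621 to 19043976) was close to 0 throughout. It was listed at 0.0820, 0.0742 and 0.0271 TPM in WT UT, at 0, 0.0182 and 0 in WT LPS, at 0.178, 0.131 and 0.179 in cGAS-/- UT and at 0.0620, 0.00640 and 0.0227 in cGAS-/- LPS. The 3 cGAS-/- UT samples were the highest of the 12. Fosb took no part in the fit with the filter. With no filter on low values it was lower with LPS in cGAS-/- cells (-0.17 ± 0.03 on the log2 scale, adjusted p = 0.00997 in limma), where 5.79% of all genes were called, and was not called in WT (-0.08, adjusted p = 0.163) or in the other comparisons. All these levels were under 0.2 TPM, and the number of reads behind them is unknown.

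Jun (ENSMUSG00000052684, chromosome 4, 94937271 to 94940459) encodes c-Jun, the main partner of FOS proteins. Its level was 133, 131 and 129 TPM in WT UT and 78.9, 132 and 28.7 in WT LPS. It was 135, 122 and 128 TPM in cGAS-/- UT and 70.7, 63.7 and 66.3 in cGAS-/- LPS. The cGAS-/- LPS samples all lay below UT, whereas in WT replicate 2 with LPS was at the UT level. The log2 difference was -0.93 ± 0.43 in cGAS-/- cells (limma, adjusted p = 0.206) and -0.96 ± 0.43 in WT (adjusted p = 0.113). Without WT LPS replicate 3 the WT difference was -0.36 (adjusted p = 0.143) and without replicate 2 Jun fell by 1.44 (adjusted p = 0.00694). With TMM factors the WT difference was -0.27. On the 6 cGAS-/- samples alone the adjusted p of Jun was 8.10e-05. The antisense RNA Junos overlaps Jun, matches 522 of its bases at 99.4% identity and was at 1.08 TPM at most.

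Junb (ENSMUSG00000052837, chromosome 8, 85701113 to 85705359), a JUN protein that can dampen c-Jun and is a common partner of Batf, stood at 72.9, 68.3 and 64.1 TPM in WT UT and at 118, 155 and 31.5 in WT LPS. The cGAS-/- samples stood at 92.5, 86.7 and 81.8 TPM in UT and at 135, 136 and 130 with LPS. The cGAS-/- LPS samples were all above UT, and in WT replicates 1 and 2 with LPS were above UT and replicate 3 below. The difference was 0.62 ± 0.46 in cGAS-/- cells (limma, adjusted p = 0.475) and 0.28 ± 0.46 in WT (adjusted p = 0.655). Without WT LPS replicate 3, Junb rose by 0.97 in WT (adjusted p = 0.000272) and by 0.62 in cGAS-/- cells (adjusted p = 0.00212). Without replicate 2 the WT difference of Junb was -0.16 (adjusted p = 0.777). Junb overlaps Prdx2 on the other strand, which was at 2.07 to 36.5 TPM and whose part in the Junb values was not tested.

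Jund (ENSMUSG00000071076, chromosome 8, 71151599 to 71153265), the JUN gene that most resting cells keep on, was at 197, 196 and 190 TPM in WT UT and at 134, 139 and 54.7 in WT LPS. It was at 188, 167 and 160 TPM in cGAS-/- UT and at 137, 147 and 139 in cGAS-/- LPS. The LPS samples lay below UT in both genotypes without overlap. The difference of -0.94 ± 0.32 in WT missed the threshold (limma, adjusted p = 0.0508), and it was -0.28 ± 0.32 in cGAS-/- cells (adjusted p = 0.673). Without WT LPS replicate 3 Jund fell by 0.50 in WT (adjusted p = 0.00228) and by 0.28 in cGAS-/- cells (adjusted p = 0.0263). With TMM factors the difference was -0.24 in WT and 0.0095 in cGAS-/- cells, and neither was called. The antisense lncRNA Gm11175 shares 543 bases with Jund and was at up to 18.4 TPM in cGAS-/- LPS and at 0 in every UT sample. Its part in the Jund values was not tested.

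Batf (ENSMUSG00000034266, chromosome 12, 85733423 to 85755861) joins JUN proteins and IRF factors at composite sites in immune cells. Its level was 6.67, 5.26 and 6.73 TPM in WT UT and 39.7, 40.2 and 9.03 in WT LPS. Its level was 3.06, 3.31 and 3.02 TPM in cGAS-/- UT and 43.1, 46.5 and 41.8 in cGAS-/- LPS. All LPS samples were above all UT samples, with WT LPS replicate 3 closest to UT. Batf rose by 1.83 ± 0.45 in WT (limma, adjusted p = 0.0128), by 2.51 without replicate 3 (adjusted p = 4.66e-07), and by 3.44 ± 0.45 in cGAS-/- cells (adjusted p = 0.000362). With all samples it was the only member past the thresholds of the methods, which add a log2 fold change beyond 2, and only in cGAS-/- cells, where 3.50% of all genes passed them and 4.32% did in WT. Its WT value of 2.51 without WT LPS replicate 3 was past them too, and without replicate 2 those of Fos (-2.41) and Atf3 (-2.07) were.

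Jdp2 (ENSMUSG00000034271, chromosome 12, 85645015 to 85690570), a Jun dimerization protein that represses AP-1 sites, was at 4.37, 3.99 and 4.38 TPM in WT UT and at 8.91, 10.1 and 10.7 in WT LPS. It was at 3.17, 2.60 and 2.70 TPM in cGAS-/- UT and at 11.4, 11.03 and 10.3 in cGAS-/- LPS. The LPS samples were close together and above UT in both genotypes, and WT LPS replicate 3 lay within 2 TPM of the other WT LPS samples. Jdp2 rose by 1.05 ± 0.18 in WT (limma, adjusted p = 0.00163), by 0.999 without replicate 3 (adjusted p = 0.000158), and by 1.64 ± 0.18 in cGAS-/- cells (adjusted p = 9.84e-05).

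Atf3 (ENSMUSG00000026628, chromosome 1, 190902493 to 190950241), a stress-induced repressor of inflammatory genes, moved down with LPS. It was at 176, 183 and 167 TPM in WT UT and at 52.7, 112 and 31.6 in WT LPS. It was at 205, 190 and 212 TPM in cGAS-/- UT and at 83.0, 89.1 and 97.6 in cGAS-/- LPS. Every LPS sample was below every UT sample. Atf3 fell by 1.60 ± 0.37 in WT (limma, adjusted p = 0.00943) and by 1.18 without replicate 3 (adjusted p = 0.00477). The difference in cGAS-/- cells was -1.16 ± 0.37 (adjusted p = 0.0607), and on those 6 samples alone it had an adjusted p of 8.45e-05.

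The LPS calls changed with the samples in the fit. For all 8 tested members the SD in TPM was largest among the WT LPS samples. With only the 6 WT samples, no member was called (limma, adjusted p from 0.0975 for Jdp2 to 0.124 for Batf among the 4), and 6.02% of all genes were. With only the 6 cGAS-/- samples, 7 members were called, Batf, Jdp2 and Junb higher and Fos, Jun, Jund and Atf3 lower, and 44.6% of all genes were. Without WT LPS replicate 3, 6 members were called in WT (35.2% of all genes) and 7 in cGAS-/- cells (31.2%). The LPS and UT samples did not overlap for 5 members in WT and for 7 in cGAS-/- cells, against 38.2% and 55.7% of all tested genes.

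**Figure D2:**
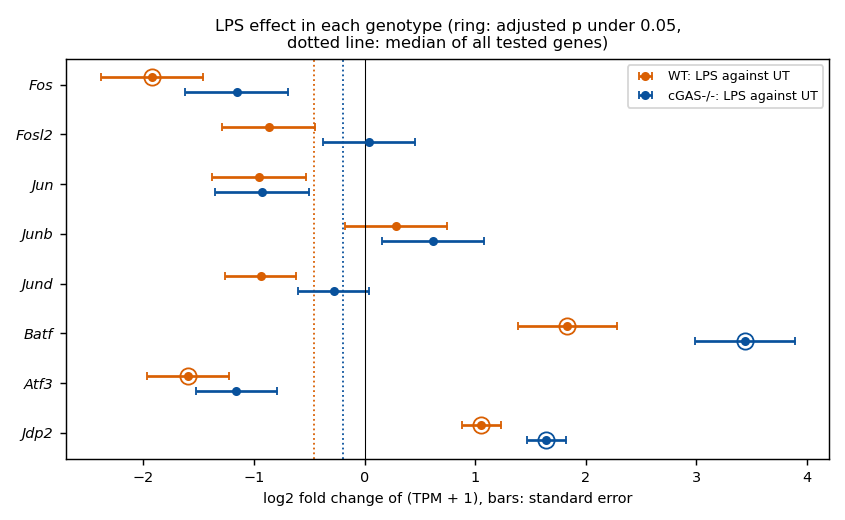
Difference of log2(TPM + 1) between LPS and UT (x axis) for the 8 tested members (y axis) in WT (orange) and cGAS-/- (blue), with bars of 1 SE, a ring where the adjusted p is under 0.05 and dotted lines at the median of all tested genes. Batf and Jdp2 carry rings on the right in both genotypes, and Fos and Atf3 on the left in WT.

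Between genotypes, no member was called in either treatment. Among UT samples, 0 of 8 were called by limma, where 1.83% of all genes were (0.252% higher and 1.58% lower), and 1 (Jdp2) had an unadjusted p under 0.05 (8.08% of all genes). With LPS, 0 of 8 were called against 2.36% of all genes (1.36% higher and 1.00% lower), and 1 (Fosl2) had an unadjusted p under 0.05 (18.8% of all genes). The thresholds of the methods also left 0 members in both, with 0.370% and 0.614% of all genes past them.

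Among UT samples, Batf, Jdp2, Fosl2 and Junb did not overlap between genotypes, and neither did Jund and Atf3, so that 6 of 8 members were apart against 30.5% of all tested genes. Batf had a mean of 3.13 ± 0.155 TPM (SD, n = 3) without cGAS and 6.22 ± 0.83 in WT, a log2 difference of -0.80 ± 0.45 (limma, adjusted p = 0.865). Jdp2 had 2.82 ± 0.31 against 4.25 ± 0.22 TPM, a difference of -0.46 ± 0.18 (adjusted p = 0.426). Fosl2 and Junb differed the other way, by 0.44 ± 0.42 and 0.34 ± 0.46 (adjusted p = 1.0 for each). When only the 6 UT samples were fitted, all 4 were called, with adjusted p of 0.00972 for Batf, 0.0346 for Jdp2, 0.0216 for Fosl2 and 0.0350 for Junb, where 10.4% of all genes were. The summed B cell markers moved in the same direction as Batf and Jdp2 between these groups, with 108 to 134 TPM in WT and 19.9 to 28.5 in cGAS-/-. The summed markers of neutrophils (173 to 243 against 85.8 to 157 TPM), dendritic cells (7.82 to 8.89 against 4.75 to 6.41) and fibroblasts (7.54 to 9.58 against 2.12 to 3.97) were also lower in cGAS-/- without overlap. The macrophage sum was higher in cGAS-/-, as Fosl2 and Junb were, also without overlap (25883 to 28453 against 24744 to 25747 TPM). Its 12 markers were not higher as a set, with a median log2 difference of -0.067 against -0.037 over all genes. Of them only Cx3cr1 was called higher. Among the 8 tested neutrophil markers, Ngp, Ltf and Elane were called lower. The part of these markers in the member values was not tested. Fos and Jun, the most classical pair, differed by 0.06 and -0.03 on the log2 scale.

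With LPS, Fosl2 had the largest difference among the members. The means were 2.90 ± 2.64 TPM (SD, n = 3) in WT and 7.32 ± 0.79 in cGAS-/-, a log2 difference of 1.34 ± 0.42 (limma, adjusted p = 0.136), and the samples did not overlap. Batf also did not overlap, at 43.8 ± 2.4 against 29.6 ± 17.8 TPM (difference 0.81 ± 0.45, adjusted p = 0.342). The other 6 members overlapped, and 17.7% of all genes did not. These differences rested on the WT LPS samples. Without replicate 3 that of Fosl2 was 0.77 (adjusted p = 0.0721) and that of Batf 0.13 (adjusted p = 0.567). Replicate 2 was the highest of the WT LPS group for every member except Jdp2. Without replicate 2, Fosl2 (1.86), Fos (1.31) and Atf3 (1.12) were called, along with 28.5% of all genes.

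**Figure D3:**
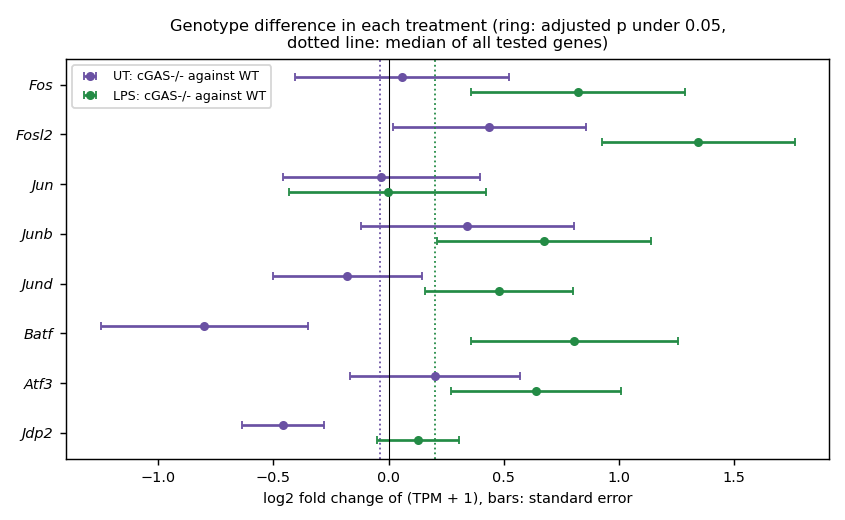
Difference of log2(TPM + 1) between cGAS-/- and WT (x axis) for the 8 tested members (y axis) in UT (purple) and LPS samples (green), with bars of 1 SE and dotted lines at the median of all tested genes. No point carries a ring, since no adjusted p was under 0.05, and Batf and Jdp2 lie left of 0 in UT and right of it with LPS, where Jdp2 would lie left of it (-0.23) with TMM factors.

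The change with LPS was compared between genotypes by the interaction term, and 0 of 8 members were called by limma, where 0.900% of all genes were (0.732% higher and 0.168% lower). The unadjusted p was under 0.05 for 2 of them and for 11.1% of all genes. The term was 1.61 ± 0.63 for Batf (unadjusted p = 0.0279, adjusted p = 0.376 in limma), a larger rise in cGAS-/- cells from a lower UT level, and 0.59 ± 0.25 for Jdp2 (unadjusted p = 0.0392, adjusted p = 0.424 in limma). Without WT LPS replicate 3 the term of Batf was 0.93 with an adjusted p of 0.0111, where 4.56% of all genes were called, and that of Jdp2 0.64 with an adjusted p of 0.0516. For the other 6 members it lay between 0.03 for Jun and 0.91 for Fosl2, and without WT LPS replicate 3 between -0.57 for Jun and 0.33 for Fosl2, with Junb at -0.36, Atf3 at 0.02, Fos at 0.10 and Jund at 0.22.

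Ratios within a sample do not change when all its values are scaled alike. WT LPS replicate 3 was the highest of its group for Jdp2 and the lowest for most members. The ratios were chosen after the values were seen and carry no test, and only their change between samples has a meaning. The ratio of Junb to Jun was 0.495 to 0.548 in WT UT and 1.10 to 1.49 in WT LPS. The same ratio in cGAS-/- cells was 0.639 to 0.711 in UT and 1.91 to 2.14 with LPS. Thus the 4 groups were apart, with both LPS groups above both UT groups and, within each treatment, cGAS-/- above WT. The ratio of Batf to Fos was 0.102 to 0.158 in WT UT and 1.65 to 2.60 in WT LPS, and in cGAS-/- cells it was 0.0537 to 0.0757 in UT and 1.77 to 2.47 with LPS. Here the UT groups were apart and the LPS groups overlapped. Jdp2 to Atf3 was 0.0218 to 0.0262 in WT UT, 0.0902 to 0.340 in WT LPS, 0.0127 to 0.0155 in cGAS-/- UT and 0.105 to 0.138 in cGAS-/- LPS, and the highest WT LPS value was that of replicate 3, against 0.169 and 0.0902 in replicates 1 and 2. Fos to Jun was lower in WT than in cGAS-/- cells with LPS, at 0.144 to 0.193 in WT and 0.296 to 0.357 in cGAS-/-, and overlapped in UT, at 0.328 to 0.395 and 0.358 to 0.439. Among 6 ratios computed, Jund to Jun overlapped between WT UT (1.47 to 1.495) and WT LPS (1.06 to 1.91) and was higher with LPS in cGAS-/- cells (1.25 to 1.39 in UT and 1.94 to 2.31 with LPS). Atf3 to Jun was lower with LPS in both genotypes, at 1.29 to 1.40 and 0.669 to 1.10 in WT and at 1.51 to 1.65 and 1.17 to 1.47 in cGAS-/- cells.

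**Figure D4:**
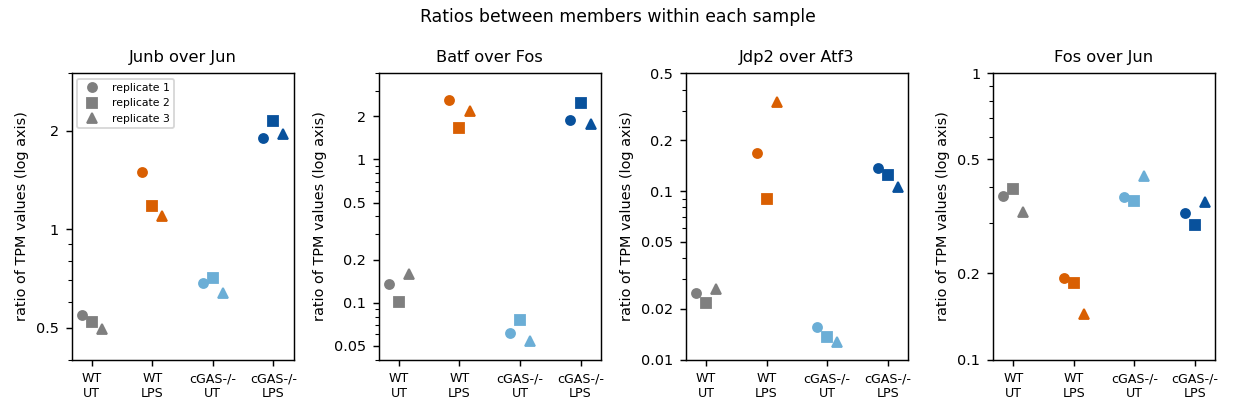
Ratio of the TPM values of 2 members within each of the 12 samples (y axis, logarithmic), by group (x axis), with a marker shape for each replicate. Junb over Jun, Batf over Fos and Jdp2 over Atf3 are higher in every LPS sample than in every UT sample, and Fos over Jun is lowest in the 3 WT LPS samples.

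The genes Fos, Jdp2 and Batf lie side by side on chromosome 12 within 235.2 kb of GRCm39, all on the plus strand. With LPS, Jdp2 and Batf rose in both genotypes, yet Fos fell in WT. In cGAS-/- cells the LPS samples of Fos lay below UT without a call in the fit of all samples. Between Fos, Jdp2 and Batf, 2 further genes were tested. The lncRNA Gm47863, which overlaps the start of Jdp2 on the minus strand, rose by 1.02 ± 0.26 in WT (limma, adjusted p = 0.0154) and by 0.87 ± 0.26 in cGAS-/- cells (adjusted p = 0.0475), from means of 0.448 and 0.460 TPM to 1.78 and 1.70, and it kept both calls without WT LPS replicate 3 (0.94 and 0.87). On the 6 WT samples alone its adjusted p was 0.118 in limma. The pseudogene Gm33312 was not called (1.41 and -0.60). On the outer sides, Tmed10, a cargo receptor of the secretory pathway, was not called (-1.04 and 0.02), and Flvcr2 stayed at or under 0.242 TPM and was not tested.

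Other bZIP genes were taken from a list of 34, of which 22 were in the table and 20 tested. With LPS in WT 3 rose and 4 fell, and in cGAS-/- cells 2 rose and 2 fell, and none was called between genotypes or in the interaction. These were 35.0% and 20.0% of the list, against 27.6% and 13.8% of all genes. Their median log2 difference was -0.44 in WT and -0.11 in cGAS-/- cells. Nfil3, a circadian repressor that also acts in immune cells, rose by 2.0 ± 0.24 in WT and by 1.90 ± 0.24 in cGAS-/- cells. Cebpb, which drives inflammatory genes in macrophages, rose by 1.76 ± 0.36 and 1.78 ± 0.36. Cebpa, a myeloid lineage factor, fell by 3.75 ± 0.56 in WT and fell by 3.06 ± 0.56 in cGAS-/- cells. Its WT LPS level was 8.93 and 10.3 TPM in replicates 1 and 2 and 0.763 TPM in replicate 3. Dbp, a clock output factor, fell by 3.33 ± 0.24 and in cGAS-/- cells fell by 2.49 ± 0.24. In WT alone Creb5 passed the test upward (0.63) and Atf6 (-1.43) and Batf3 (-0.89) downward, and a difference between genotypes was not called for any of them. Batf3, a close relative of Batf, was thus at -0.89 ± 0.18 in WT (limma, adjusted p = 0.00489) and -0.31 ± 0.18 in cGAS-/- cells (adjusted p = 0.330), while Batf rose. The counts of the list without WT LPS replicate 3 were 4 up and 5 down in WT and 4 up and 5 down in cGAS-/- cells, Atf6 fell by 0.86, and 0 up and 1 down were called between genotypes with LPS (35.2%, 31.2% and 8.27% of all genes were). Without replicate 2, 3 rose and 8 fell in WT (49.6% of all genes) 6 were higher in cGAS-/- with LPS (28.5%), and 2 were called in the interaction (13.1%). On the 6 WT samples alone, 1 rose and 3 fell, and Cebpb, Creb5 and Atf6 were not called (limma, adjusted p from 0.0913 to 0.171). On the 6 cGAS-/- samples alone, 7 rose and 8 fell (44.6% of all genes), and on the 6 UT samples 2 were higher and 1 lower in cGAS-/- (10.4%).

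**Figure D5:**
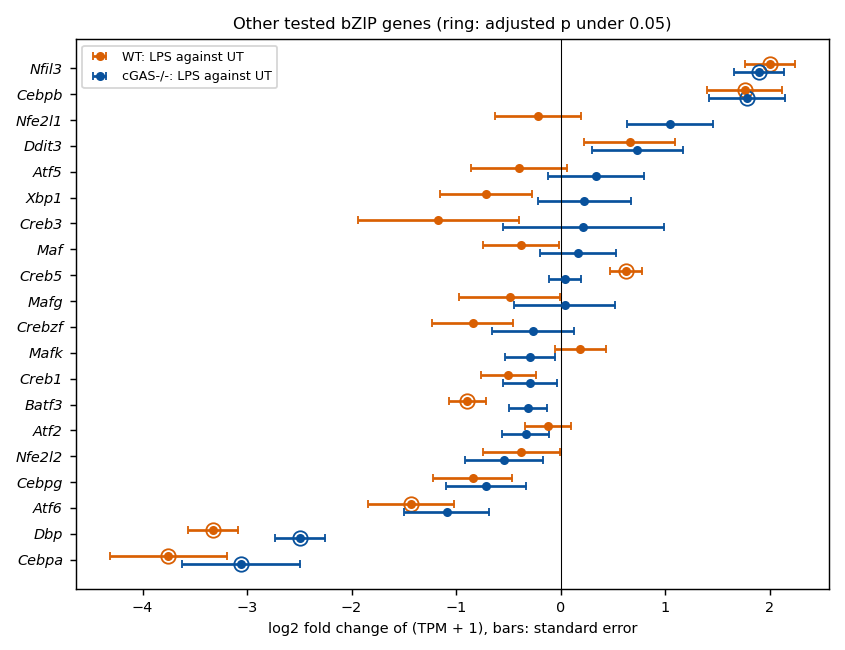
Difference of log2(TPM + 1) between LPS and UT (x axis) for the 20 other tested bZIP genes (y axis) in WT (orange) and cGAS-/- (blue), with bars of 1 SE and a ring where the adjusted p is under 0.05. Nfil3 and Cebpb stand at the top and Dbp and Cebpa at the bottom in both genotypes.

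Immediate early genes outside the family were taken from a list of 28, of which 16 were tested. With LPS 0 rose and 5 fell in WT (31.2% of the list against 27.6% of all genes), and 1 rose and 3 fell in cGAS-/- cells (25.0% against 13.8%). Their median log2 difference was -0.66 in WT and -0.20 in cGAS-/- cells. Ier5l fell by 2.41 ± 0.20 in WT and fell by 2.71 ± 0.20 in cGAS-/- cells. Gadd45a, a stress gene of growth arrest, fell by 2.31 ± 0.43 in WT, and there Ccn1, a matrix protein gene, fell by 1.90 ± 0.28. Egr2, a zinc finger factor, fell by 1.45 ± 0.33 in cGAS-/- cells, and Dusp4, a MAP kinase phosphatase, fell by 1.33 ± 0.29, and both were also among the 5 in WT. Dusp2, a phosphatase of the same family, rose by 1.97 ± 0.56 in cGAS-/- cells. When WT LPS replicate 3 was left out the counts were 2 up and 5 down in WT and 3 up and 7 down in cGAS-/- cells, and 2 were called lower in cGAS-/- among UT samples (35.2%, 31.2% and 5.50% of all genes were called). In the interaction 2 were then called higher (4.56% of all genes), against 0 with all samples (0.900%). Leaving out replicate 2 instead, 0 rose and 10 fell in WT, where 49.6% of all genes were called, 3 were higher in cGAS-/- with LPS (28.5%) and 2 in the interaction (13.1%). On the 6 WT samples alone, 2 fell, and Gadd45a was not called (limma, adjusted p = 0.0620). On the 6 cGAS-/- samples alone 4 rose and 7 fell (44.6% of all genes), and on the 6 UT samples 2 were higher and 4 lower in cGAS-/- (10.4%).

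Of 31 MAP kinase pathway genes upstream of AP-1, 16 were tested. With LPS 0 rose and 4 fell in WT (25.0% of the list against 27.6% of all genes), and 0 rose and 1 fell in cGAS-/- cells (6.25% against 13.8%). Map2k3, a p38 activator, fell by 1.15 ± 0.30 in WT and fell by 1.18 ± 0.30 in cGAS-/- cells. Mapk3, which encodes ERK1, fell by 1.47 ± 0.50 in WT, and Rps6ka1, an ERK target kinase, fell by 1.10 ± 0.30. Map3k5, which encodes ASK1, was higher in cGAS-/- than in WT with LPS by 0.96 ± 0.18 (limma, adjusted p = 0.0212), with 1.57 ± 0.07 against 0.342 ± 0.329 TPM (SD, n = 3). The median difference was -0.38 in WT and -0.08 in cGAS-/- cells. In WT, Mapk3 fell by 0.70 and Map2k3 fell by 0.74 without WT LPS replicate 3, where 0 rose and 4 fell (35.2% of all genes), and 1 rose and 2 fell in cGAS-/- cells (31.2%). Without replicate 2, 9 fell in WT (49.6% of all genes) and 6 were higher in cGAS-/- with LPS (28.5%), against 1 with all samples (2.36%), and 4 were called in the interaction (13.1%), against 0 (0.900%). With only the groups compared, none was called in WT with LPS or between genotypes with LPS, where the adjusted p of Map3k5 was 0.348 in limma, while 2 rose and 4 fell in cGAS-/- cells with LPS (44.6% of all genes) and 1 was higher in cGAS-/- among UT samples (10.4%). These are RNA levels and say nothing of phosphorylation.

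Of 30 genes often named as AP-1 targets, 23 were tested, and cytokine and chemokine genes led those that rose. With LPS 10 rose and 3 fell in WT (56.5% against 27.6% of all genes) and 9 rose and 3 fell in cGAS-/- cells (52.2% against 13.8%), with a median log2 difference of 0.71 and 1.35 against -0.46 and -0.20 over all genes. The counts without WT LPS replicate 3 were 12 up and 5 down in WT (35.2% of all genes) and 13 up and 5 down in cGAS-/- cells (31.2%). Without replicate 2 they were 8 up and 5 down in WT, where 49.6% of all genes were called, with a median of 0.37. In cGAS-/- cells they were then 12 up and 3 down (20.9% of all genes). On the 6 WT samples alone 4 rose and 3 fell (6.02% of all genes), and on the 6 cGAS-/- samples alone 13 rose and 6 fell (44.6%). Many of them are targets of NF-kB as well. The cytokine genes Il1a (4.97 ± 0.28 and 7.02 ± 0.28) and Il1b (4.33 ± 0.50 and 7.22 ± 0.50) and the chemokine gene Ccl2 (4.06 ± 0.44 and 5.56 ± 0.44) rose the most in WT and cGAS-/- cells. The elastase gene Mmp12 fell by 5.12 ± 0.34 in WT and fell by 4.03 ± 0.34 in cGAS-/- cells. The cyclin gene Ccnd1 fell by 3.35 ± 0.38 and in cGAS-/- cells fell by 3.85 ± 0.38, and the osteopontin gene Spp1 fell by 2.64 ± 0.40 and in cGAS-/- cells fell by 3.19 ± 0.40.

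Between genotypes several of these targets were called. With LPS, 5 were higher in cGAS-/- than in WT and 1 was lower, where 2.36% of all genes were called. The gelatinase gene Mmp9 stood at 49.4 ± 2.1 against 2.996 ± 1.951 TPM (SD, n = 3), Il1b at 847 ± 73 against 110 ± 57 and Il6 at 14.3 ± 1.6 against 0.801 ± 0.256. Mmp3 was at 0.0369 ± 0.0639 TPM against 1.33 ± 0.49, and Mmp3 and Ccl2 were also the 2 called lower in cGAS-/- UT cells, where Mmp3 was listed at 0 in all 3 samples and Ccl2 had 2.08 ± 0.56 against 23.7 ± 1.8 TPM. Among UT samples the count was 3 higher and 5 lower without WT LPS replicate 3 (5.50% of all genes) and 4 higher and 5 lower with only the 6 UT samples (10.4%), against 0 and 2 (1.83%). In the interaction 3 targets were called, Mmp9 (5.34 ± 0.51), Il6 (3.14 ± 0.23) and Il1a (2.05 ± 0.40). Leaving out WT LPS replicate 3, 7 were higher and 6 lower in cGAS-/- with LPS, where 8.27% of all genes were called, and 5 and 4 were called in the interaction, where 4.56% were. Without replicate 2, 10 were higher and 2 lower with LPS (28.5% of all genes) and 6 were called in the interaction (13.1%). With only the 6 LPS samples, none of the 23 was called between genotypes, where 0.0421% of all genes were (limma, adjusted p = 0.102 for Mmp9, 0.160 for Il1b and 0.0539 for Il6).

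The genes whose profile over the 12 samples was most like each member were found by the root mean square (RMS) difference of log2(TPM + 1) after each gene's own mean was subtracted. The samples share library scale and the level of WT LPS replicate 3, so these values are a description. For Fos they were Agap3 (RMS 0.126) and Tns3 (0.143), and for Atf3 Prkch (0.105) and Naf1 (0.130). Fos and Atf3 were also each other's nearest member (0.243), against an own RMS of 0.963 for Fos and 0.819 for Atf3. For Jun they were Rufy3 (0.123) and Adap2 (0.128), for Jund Tubgcp2 (0.0843) and Capzb (0.0931), and Jun and Jund were each other's nearest member (0.310, against an own RMS of 0.653 and 0.473). For Junb they were Leng9 (0.125) and Cd72 (0.1601), and for Fosl2 Cct2 (0.125) and Wsb1 (0.151). For Batf they were Slc31a2 (0.235) and Lgals9 (0.321), and for Jdp2 Sdc4 (0.140) and Rilpl2 (0.190). The nearest member was Jdp2 for Batf (0.873, own RMS 1.46), Junb for Jdp2 (0.775, own RMS 0.699), Fosl2 for Junb (0.520, own RMS 0.608) and Jund for Fosl2 (0.448, own RMS 0.706).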

How the data were processed

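RNA-seq of 12 BMDM samples was analysed. According to the study's methods and processing notes, the authors used fastp, STAR with GRCm39, and Kallisto. Each deposited value was read as TPM, the mean over a symbol's transcripts. The values themselves are the source of this unit, and the read depth is unknown. The listed genes stop on chromosome 13, so Fosl1, Batf2, Atf4 and other listed genes beyond it were not analysed here. The members and gene lists were chosen with earlier results of these data known. Genes with at least 1 TPM in at least 3 of 12 samples, with each sample summing to 1000000 in this step alone, were kept. Limma 3.58.1 (R 4.3.3) was fitted to log2(TPM + 1) with a mean per group over 12 samples and a variance trend, and p-values were adjusted over all 11887 genes. One gene of the bZIP list is not reported here. The fit was tested on simulated data. Every member is named, with up to 3 called genes per list, direction and comparison. Shared sequence was searched with blastn 2.17.0. Positions are those of GENCODE M39. Alternatives covered pseudocounts, filters, scaling (TMM factors among them), samples in the fit, the replicate block, the variance model, sample weights, thresholds and each sample left out.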

Additional observations from a re-analysis of the deposited data

How the results depend on the processing

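Of 952 recomputed log2 differences, 862 kept their direction and their side of the threshold, 55 became called, 4 lost their call and 31 changed sign, and the cause was not tested. The 4 lost calls were those of LPS in WT with only the 6 samples compared. In WT, 4 members were called with LPS, against 7 with protein-coding genes rescaled (53.5% of all genes), 0 with only the groups compared, 0 by the thresholds of the methods, and 4 to 7 when a sample was left out (6 without WT LPS replicate 3 and 7 without replicate 2). In cGAS-/- cells, 2 were called, against 4 with quantile normalization (15.1% of all genes), 6 with protein-coding genes rescaled (31.6%), 7 with only the groups compared (44.6%), 7 with sample weights (48.3%), 1 by the thresholds of the methods, and 2 to 7 with a sample left out (4 without WT LPS replicate 2 and 7 without replicate 3). Between genotypes in UT, 0 became 4 with only the groups compared (10.4%), 4 with sample weights (11.5%) and 0 to 2 with a sample left out (2 without WT LPS replicate 3). With LPS, 0 became 0 to 3 (3 without WT LPS replicate 2), and in the interaction 0 to 1 (Fosl2 without replicate 2, Batf without replicate 3). TMM factors moved the median of all genes with LPS to -0.09 in WT and -0.02 in cGAS-/- cells.

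The changes of sign concerned differences that were not called in the fit reported. Junb with LPS in WT and Jund with LPS in cGAS-/- cells were called under other settings (without WT LPS replicate 3, for one). With LPS in WT, Junb ranged from -0.16 (without WT LPS replicate 2) to 0.97 with a sample left out. With LPS in cGAS-/- cells, Fosl2 was -0.032 with a common total, -0.22 with protein-coding genes and -0.016 to 0.12 with a sample left out, and Jund was 0.0095 with TMM factors. Between genotypes in UT, Fos was -0.017 with a common total and -0.028 to 0.15 with a sample left out, and Jun was 0.067 with quantile normalization, 0.014 with protein-coding genes and -0.069 to 0.0047 with a sample left out. With LPS, Jun was 0.12 with a common total and -0.60 to 0.48 with a sample left out (without WT LPS replicates 3 and 2), Junb -0.015 to 1.12 (without WT LPS replicates 3 and 2), and Jdp2 -0.23 with TMM factors, -0.11 with quantile normalization and -0.069 with protein-coding genes. In the interaction, Jun was -0.37 with TMM factors, -0.18 with quantile normalization, -0.22 with protein-coding genes, -0.32 with weights and -0.57 to 0.51 with a sample left out. Junb was -0.068 with TMM factors, -0.17 with weights and -0.36 to 0.78 with a sample left out.

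With the replicate number as a block, the counts of called members were 4, 2, 0, 0 and 0, as without it. Deviations of same-numbered samples correlated between -0.031 and 0.038, so the numbers were not taken to pair samples. The counts of the other gene lists without WT LPS replicates 2 or 3 and with only the groups compared were chosen after seeing the data.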
